A study of Homo sapiens with 6 samples.

Results

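The 10 genes described here encode the pocket proteins (RB1, RBL1, RBL2), the subunits of the MuvB core (LIN9, LIN37, LIN52, LIN54, RBBP4) and the transcription factors MYBL2 and FOXM1 that bind this core. They were taken by gene symbol from a table of 34738 genes, and all 10 were present. Thyroid cancer cells transfected with an siRNA against GDF15, a secreted cytokine of the TGF-β family, formed the siGDF15 group, and control cells formed the NC group. Each group had 3 libraries, which the methods call biological replicates. All 6 samples carry the cell line name KHM-5M, a single established thyroid cancer line, whereas a legend in the study names TPC-1 for the sequencing, and this difference was not settled here. The methods describe NC as negative control cells and the deposited design as a blank control, and whether they received an siRNA was not settled. If they received none, the effect of transfection and that of lowering GDF15 cannot be told apart.

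Poly(A) RNA was sequenced in bulk, and levels are given as FPKM, that is, fragments scaled by transcript length and by library size. The deposited counts summed to between 51738814 and 68025163 per library, with the lowest total in siGDF15 replicate 2. Mitochondrially encoded genes held 6.39 to 6.78% of counts in NC and 8.53 to 9.17% in siGDF15, and the part of this shift in the results was tested only by leaving those genes out, which changed no call on the 10 genes. GDF15 itself was at 22.4, 19.3 and 23.1 FPKM in NC and at 10.8, 10.5 and 10.7 FPKM in siGDF15, a log2 fold change of -0.92 (SE 0.079, adjusted p = 2.40e-05, edgeR). Of the thyroid follicular markers, PAX8 was at 59.1 ± 5.33 FPKM (SD, n = 3) in NC and at 79.4 ± 1.70 FPKM in siGDF15, and FOXE1 at 2.76 ± 0.208 and 2.83 ± 0.162 FPKM. The markers TG, SLC5A5 and NKX2-1 had a mean under 1 FPKM, so these defining products of differentiated follicular cells were near absent. Summed over 5 blood and endothelial markers, levels were 17.8 to 19.6 FPKM in NC and 16.1 to 18.1 FPKM in siGDF15, nearly all of it from CD68 at 18.3 and 16.9 FPKM.

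Pocket proteins bind E2F transcription factors and restrain the genes that E2F controls. In resting cells RBL1 or RBL2, with a repressor E2F and its DP partner, joins the MuvB core to form the DREAM complex, which holds genes of the cell cycle silent. When cyclin-dependent kinases phosphorylate the pocket proteins, MuvB is released and binds MYBL2 (the MMB complex) and then FOXM1, and the same core then activates genes of G2 and mitosis. The deposited annotation places all 10 genes in the KEGG pathway of cellular senescence.

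Of the 10 genes, 9 fell in siGDF15 and 0 rose at an adjusted p under 0.05 (edgeR's quasi-likelihood test, Benjamini-Hochberg over the 11867 genes with a mean of at least 1 FPKM). All 10 passed this filter. Among all tested genes 31.4% were lower and 30% higher by the same rule, 61.4% in either direction. The falls were largest for RBL1, FOXM1, LIN9, MYBL2 and LIN52, each with a log2 fold change below -1, a size of fall that 4.78% of tested genes reached. Rises of that size were seen in 3.03% of tested genes and in 0 of the 10, and changes of that size in either direction in 7.81%. RB1, RBL2 and RBBP4 fell less, to between 71.0 and 75.6% of their NC mean in FPKM, and LIN37 was not called. The edgeR fit, which scales libraries further, put the ratios of siGDF15 to NC for RB1, RBL2 and RBBP4 at 0.764, 0.814 and 0.781. The median log2 fold change was -0.94 over the 10 genes and 0.00 over all tested genes. In 9 of the 10 genes the 3 siGDF15 libraries all lay below the 3 NC libraries, as they did in 42% of tested genes. The groups did not overlap in 68.4% of tested genes in either direction, and in 26.4% with siGDF15 higher. In bulk RNA, fewer cycling cells and less RNA per cell cannot be told apart.

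**Figure D1:**
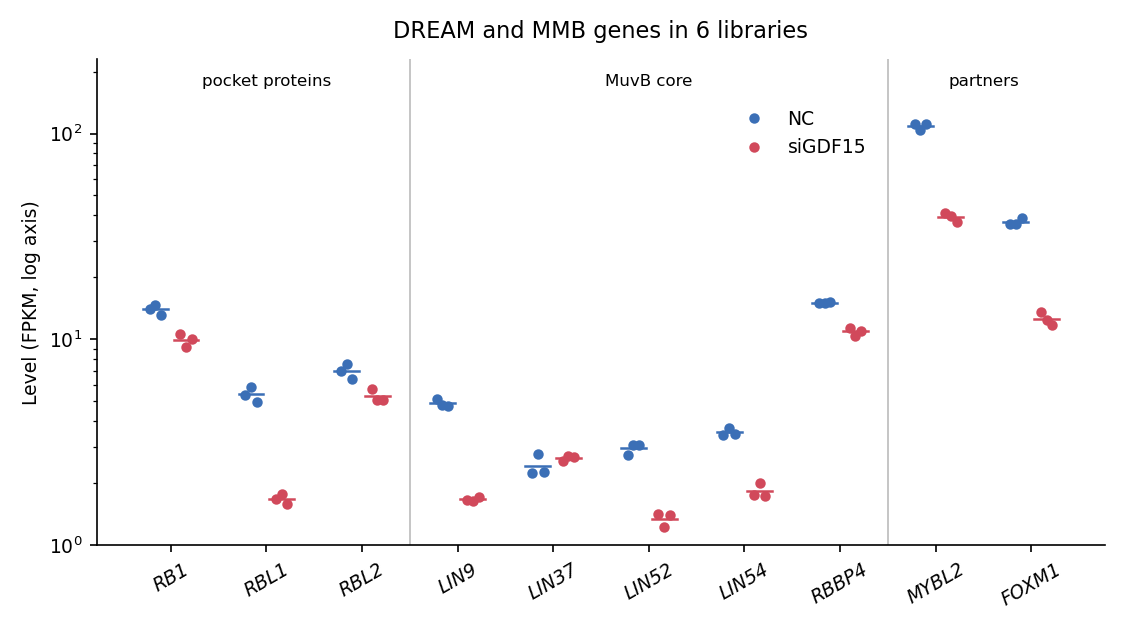
Level of each gene in FPKM on a log axis, with 1 point per library (NC in blue, siGDF15 in red) and a line at each group mean. The points of the 2 groups are apart for 9 genes, and for LIN37 they overlap.

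RBL1 (p107), a pocket protein of DREAM that is itself made mainly in cycling cells, had the largest fall of the 10. RBL1 (ENSG00000080839, chr20:36996349-37095997, minus strand, GRCh38 as in the deposited table) was at 5.40, 5.85 and 4.97 FPKM in NC and at 1.68, 1.78 and 1.58 FPKM in siGDF15. The groups were apart by a wide margin, with siGDF15 lower throughout. The means were 5.41 ± 0.436 and 1.68 ± 0.0991 FPKM (SD, n = 3), and the log2 fold change was -1.58 (95% interval -1.74 to -1.42, adjusted p = 1.89e-06, edgeR). Only 1.47% of tested genes had a lower value.

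RBL2 (p130), the pocket protein of DREAM in resting cells, fell much less. RBL2 (ENSG00000103479, chr16:53433977-53491628, plus strand) was at 7.02, 7.58 and 6.42 FPKM in NC and at 5.76, 5.06 and 5.07 FPKM in siGDF15. The groups did not overlap, although the lowest NC and the highest siGDF15 library were near each other. The log2 fold change was -0.30 (95% interval -0.45 to -0.15, adjusted p = 0.00886, edgeR), and 26.1% of tested genes had a lower value.

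RB1, the retinoblastoma protein, which binds the activating E2F factors, lay between them. RB1 (ENSG00000139687, chr13:48303744-48599436, plus strand) was at 14.0, 14.8 and 13.2 FPKM in NC and at 10.6, 9.16 and 10.01 FPKM in siGDF15. The 3 siGDF15 libraries were all lower, with a log2 fold change of -0.39 (95% interval -0.51 to -0.27, adjusted p = 0.000795, edgeR).

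The pocket proteins therefore made up their sum in other proportions. Summed over the 3 genes, the level was 26.4 ± 1.81 FPKM (SD, n = 3) in NC and fell short of that in every siGDF15 library, at 16.9 ± 1.05 FPKM. RBL1 gave 20.5 ± 0.252% of this sum in NC and 9.97 ± 1.00% in siGDF15. RB1 gave 53.0 ± 0.624% and 58.7 ± 1.42%, and RBL2 26.5 ± 0.375% and 31.3 ± 0.778%. The shares of RBL1 were separate between groups, lower in siGDF15, and those of the other two were higher there.

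A ratio of 2 genes within a library does not depend on how libraries are scaled. The ratio of RBL1 to RBL2 in FPKM was 0.772 in NC and 0.317 in siGDF15 (geometric means). On the log2 scale it was -0.38, -0.37 and -0.37 in NC and -1.78, -1.51 and -1.68 in siGDF15, a difference of -1.28 (SE 0.079). The groups were far apart against a narrow spread in NC, yet the exact permutation test gave p = 0.1, the smallest that 3 libraries against 3 allow (two-sided), and 0.167 after adjustment over the 5 ratios computed. The log2 ratio of RB1 to RBL2 was 1.00 in NC and 0.91 in siGDF15, with overlapping libraries (difference -0.09, SE 0.044, exact p = 0.2, adjusted 0.2).

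**Figure D2:**
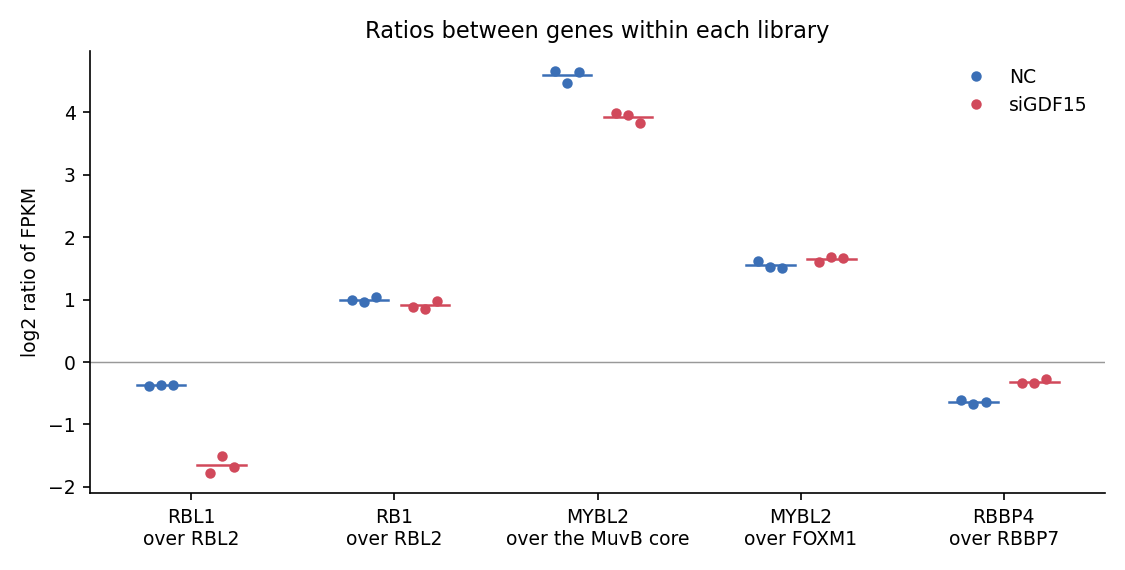
Log2 ratio of FPKM between genes of the same library (vertical axis), with 1 point per library and a line at each group mean, NC in blue and siGDF15 in red. The groups are apart for RBL1 over RBL2, MYBL2 over the MuvB core (geometric mean of its 5 genes) and RBBP4 over RBBP7, and they overlap for RB1 over RBL2 and MYBL2 over FOXM1.

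Within the MuvB core 4 of the 5 genes fell, with a median log2 fold change of -0.85 over the 5. LIN9, which together with LIN52 forms the surface that holds MYBL2, had the largest fall. LIN9 (ENSG00000183814, chr1:226231149-226309869, minus strand) was at 5.15, 4.82 and 4.72 FPKM in NC and at 1.66, 1.64 and 1.71 FPKM in siGDF15. The libraries of each group lay close together and the groups were far apart. The log2 fold change was -1.44 (95% interval -1.58 to -1.29, adjusted p = 1.81e-06, edgeR).

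LIN52 is the small subunit that links the core to the pocket protein and is phosphorylated by the kinase DYRK1A. LIN52 (ENSG00000205659, chr14:74084956-74201493, plus strand) was at 2.75, 3.05 and 3.08 FPKM in NC and at 1.42, 1.22 and 1.40 FPKM in siGDF15. It had the fewest reads of the 10 genes, down to 67 read pairs in 1 siGDF15 library, and still fell by 1.03 on the log2 scale (95% interval -1.24 to -0.82, adjusted p = 7.09e-05, edgeR). The value of LIN52 was -0.97 without siGDF15 replicate 2 and lay between this and -1 without NC replicate 3, and the call at the adjusted p alone was kept.

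LIN54, the subunit that binds DNA at the CHR element of cell cycle promoters, fell by less. LIN54 (ENSG00000189308, chr4:82909973-83012911, minus strand) was at 3.43, 3.73 and 3.47 FPKM in NC and at 1.75, 2.00 and 1.74 FPKM in siGDF15. All siGDF15 libraries were lower, with a log2 fold change of -0.85 (95% interval -1.01 to -0.69, adjusted p = 4.84e-05, edgeR).

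RBBP4, a histone-binding protein that also serves in several other chromatin complexes, had the smallest fall called in the core. RBBP4 (ENSG00000162521, chr1:32651142-32680657, plus strand) was at 15.1, 14.9 and 15.1 FPKM in NC and at 11.4, 10.4 and 10.96 FPKM in siGDF15. The groups were separate, with a log2 fold change of -0.36 (95% interval -0.44 to -0.27, adjusted p = 0.000164, edgeR). RBBP4 has processed pseudogenes that can take some of its reads, the highest of them RBBP4P1 at 1.504 ± 0.349 FPKM (SD, n = 3) in NC and at 0.779 ± 0.318 FPKM in siGDF15, and SYNC overlaps it on the opposite strand over 752 bases. SYNC was higher in siGDF15 (log2 fold change 0.62, adjusted p = 6.93e-05, edgeR), the opposite direction to RBBP4.

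LIN37, a subunit needed for repression by DREAM, was the 1 gene of the 10 with no call. LIN37 (ENSG00000267796, chr19:35748361-35754519, plus strand) was at 2.25, 2.78 and 2.28 FPKM in NC and at 2.57, 2.71 and 2.69 FPKM in siGDF15. The siGDF15 libraries lay within the NC range, with NC replicate 2 the highest of all 6. The log2 fold change was 0.23 (95% interval -0.01 to 0.47, adjusted p = 0.135, edgeR). With NC replicate 2 left out it was 0.33 and passed the test as a rise (adjusted p = 0.0422). Another annotated gene, ENSG00000188223, covers all 6159 bases of LIN37 on the same strand. It was at 0 in 4 libraries, at 0.645 FPKM in NC replicate 3 and at 0.867 FPKM in siGDF15 replicate 1, and how reads were divided between the 2 genes was not tested.

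The order of levels within the core was not the same in both groups. In NC the order was RBBP4, LIN9, LIN54, LIN52 and LIN37, in which the ranges of LIN52 and LIN37 overlapped. In siGDF15 it was RBBP4, LIN37, LIN54, LIN9 and LIN52, in which no neighbouring ranges overlapped. LIN37 gave 8.43 ± 0.921% of the summed FPKM of the core in NC and 14.4 ± 0.686% in siGDF15, and LIN9 gave 17.0 ± 0.875% and 9.08 ± 0.211% (SD, n = 3). The sum of the core was 28.9 ± 0.380 FPKM in NC and 18.4 ± 0.399 FPKM in siGDF15, with RBBP4 giving 52.1 ± 1.00% and 59.2 ± 1.34% of it.

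Both transcription factors that join the released core fell. MYBL2 (B-MYB), which binds MuvB in S phase, was the most abundant of the 10 genes in both groups. MYBL2 (ENSG00000101057, chr20:43667019-43716495, plus strand) was at 112, 104 and 111 FPKM in NC and at 41.3, 39.7 and 37.1 FPKM in siGDF15. The groups were far apart, with a log2 fold change of -1.36 (95% interval -1.48 to -1.25, adjusted p = 7.89e-07, edgeR).

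FOXM1, the forkhead factor that drives genes of G2 and mitosis, was the next most abundant in both groups. FOXM1 (ENSG00000111206, chr12:2857680-2877174, minus strand) was at 36.2, 36.4 and 39.1 FPKM in NC and at 13.6, 12.3 and 11.7 FPKM in siGDF15. The siGDF15 libraries were all well below those of NC, with a log2 fold change of -1.46 (95% interval -1.59 to -1.33, adjusted p = 9.20e-07, edgeR). FOXM1 and RHNO1, a DNA damage response gene on the opposite strand, share 917 bases at their 5′ ends. RHNO1 was at 17.9, 18.0 and 17.7 FPKM in NC and at 8.46, 7.30 and 6.05 FPKM in siGDF15, and it fell too (log2 fold change -1.19, SE 0.11, adjusted p = 3.39e-05, edgeR). The library kit keeps strand, but whether the counting used it is not given in the sources used here, so some reads of the shared stretch could stand under either gene. ITFG2, which overlaps FOXM1 over 2112 bases, was not called (log2 fold change 0.13, adjusted p = 0.260, edgeR).

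Relative to the mean of the 5 core genes, MYBL2 was lower in each siGDF15 library than in any NC library. This does not hold for each core gene. LIN9 fell about as much as MYBL2 (log2 fold changes -1.44 and -1.36, edgeR), LIN52, LIN54 and RBBP4 fell less, and LIN37 was not called. The ratio of MYBL2 to the geometric mean of the 5 core genes was 24.1 in NC and 15.1 in siGDF15. On the log2 scale the NC libraries stood at 4.66, 4.47 and 4.64 and the siGDF15 libraries at 3.99, 3.95 and 3.82, with no overlap (difference -0.67, SE 0.078, exact permutation p = 0.1, adjusted 0.167). The ratio of MYBL2 to FOXM1 was 2.93 in NC and 3.14 in siGDF15, and here the libraries overlapped (log2 difference 0.10, SE 0.045, exact permutation p = 0.2, adjusted 0.2). These values stand beside those of the pocket proteins in the plot of ratios within libraries.

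**Figure D3:**
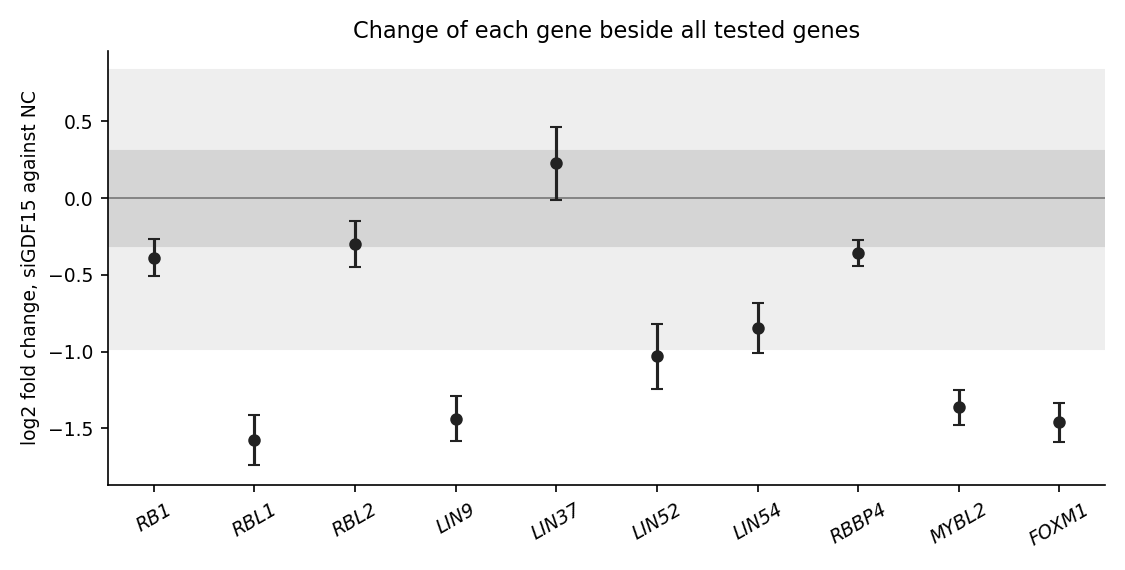
Log2 fold change of each gene, siGDF15 against NC, from edgeR, with 95% intervals (normal approximation) as bars. The dark band holds the middle of all tested genes, from the 25th percentile of -0.31 to the 75th of 0.31, and the light band reaches from the 5th percentile of -0.99 to the 95th of 0.83. RBL1, LIN9, LIN52, MYBL2 and FOXM1 lie below the light band.

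Promoter sequence was read for 9 of the 10 genes, all but FOXM1, from RefSeq windows on GRCh38.p14 that run from 250 bases before to 50 bases after an annotated start site, 15 windows in all. The motifs searched on both strands were TTTGAA (the CHR element that LIN54 binds), TTCGCGC and TTGGCGC (cores of an E2F site) and CCAAT (the NF-Y box). A further E2F-like form, TTGGCGG, was added after the sequences were seen. Stretches of 30 bases are shown because they hold the E2F or CHR letters of genes with large and small changes. They run 5′ to 3′ on the strand of the gene, with the CHR, E2F and E2F-like letters in capitals. The NF-Y box is left in lower case, and the stretch of RBBP4 begins with it on the opposite strand.
RBL1, chr20:37096002-37096031, minus strand: ctgcagattTTCGCGCgctTTGGCGCaggt
RBBP4, chr1:32651154-32651183, plus strand: attggctgatgTTGGCGCGAAggtgcgcga
MYBL2, chr20:43667062-43667091, plus strand: cgccgacgcgcTTGGCGGgagatagaaaag
LIN54, chr4:83010902-83010931, minus strand: cttgtgcgTTTGAAggTTGGCGGggcggcg
LIN9, chr1:226309153-226309182, minus strand: ccgcggcgggcagccTTTGAAaaagcggcg
LIN37, chr19:35748620-35748649, plus strand: acgaagctcatcTTTGAActgtccccgcct
By GENCODE release 29, the stretch of RBL1 lies upstream of its 3 coding transcripts, and that of LIN54 in an intron of 2 of its 6. The stretches of RBBP4, MYBL2 and LIN37 fall in a noncoding part of an exon in 2 of 9, 1 of 2 and 1 of 3 coding transcripts. That of LIN9 reaches into coding sequence in 3 of 5.

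RBL1, with the largest fall, held both E2F cores in 1 window, the first base of TTCGCGC at -25 and that of TTGGCGC at -15 from the start site. RBBP4, with a small fall, held the same letters as 1 merged site in which TTGGCGC and, on the opposite strand, TTCGCGC share bases. TTCGCGC was in 2.24% and TTGGCGC in 3.04% of 35116 RefSeq windows, and each was in 3 of the 15 windows read here. RBL1 and RBBP4 were the 2 of 9 genes with either, and the 2 overlapping windows of RBBP4 hold the same site. MYBL2 and LIN54 held TTGGCGG, present in 3 of the 15 windows and in 3.43% of all windows, at -41 in MYBL2.

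TTTGAA was in 5 of the 15 windows and in 15.2% of all windows. The 5 belong to 4 of the 9 genes, RBL2, LIN9, LIN37 and LIN54, with 1 site of LIN54 in 2 overlapping windows. In LIN9 it began at -3, and in LIN54 it began at -100 from 1 start site, shortly before TTGGCGG at -92. Genes with these letters included LIN9, with a log2 fold change of -1.44, and LIN37, which was not called. CCAAT was in 5 of the 15 windows, from RBL2, LIN37, LIN52 and RBBP4, and in 34.6% of all windows. RB1 held none of the 5 motifs. Such matches are descriptions of the letters, not sites shown to be bound in these cells.

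The seed of the siGDF15 antisense strand pairs with CTCATTC, and these letters occur in an annotated 3′UTR (GENCODE release 29) of RBL1 and RBBP4 among the 10 genes. They occur in 14.9% of the 10530 tested genes with such a 3′UTR, whose median log2 fold change was -0.12, against 0.01 for genes without them. The part of this match in the fall of RBL1 and RBBP4 was not tested. The other genes of the 10 lack these letters there.

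The paralogs of the 10 genes that were tested fell as well. RBBP7, which can stand in for RBBP4 in chromatin complexes, was at 23.4 ± 0.336 FPKM (SD, n = 3) in NC and at 13.6 ± 0.648 FPKM in siGDF15, with a log2 fold change of -0.68 (SE 0.046, adjusted p = 6.57e-06, edgeR). The ratio of RBBP4 to RBBP7 was 0.642 in NC and 0.801 in siGDF15, with no overlap (log2 difference 0.32, SE 0.025, exact permutation p = 0.1, adjusted 0.167). MYBL1 (A-MYB) went from 6.92 ± 0.119 to 2.19 ± 0.162 FPKM, a log2 fold change of -1.55 (SE 0.065, adjusted p = 7.89e-07, edgeR), and MYB was below the filter.

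Of the 10 E2F and DP genes, some of whose products carry the pocket proteins to DNA, 6 fell, 2 rose and 2 were not called. Among all tested genes 31.4% were lower and 30% higher. E2F1 and E2F2, which activate entry into S phase, had log2 fold changes of -1.15 and -1.72 (adjusted p = 6.40e-06 and 2.15e-05, edgeR) and fell. E2F7 and E2F8, which repress without a pocket protein, fell too, with -1.08 and -1.61 (adjusted p = 8.37e-06 and 1.28e-06, edgeR). E2F4 and E2F5, the partners of RBL1 and RBL2 in DREAM, had log2 fold changes of -0.20 (adjusted p = 0.0339, edgeR) and 0.30 (adjusted p = 0.00190, edgeR). The call on E2F4 was lost when any 1 library other than NC replicate 2 was left out (adjusted p up to 0.115). Of the DP subunits TFDP1 fell by 0.52 and TFDP2 rose by 0.42, while E2F3 at -0.04 and E2F6 at 0.17 were not called.

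Of the 10 kinases and cyclins tested that act on these complexes, 7 fell, 0 rose and 3 were not called. With 1 library left out, 6 to 7 of them fell and 0 to 1 rose. For this list and the next, the shares over all tested genes were 31.4% lower and 30% higher. CDK2 fell by 1.38, CCNA2 (cyclin A2) by 1.91 and CCNE2 (cyclin E2) by 1.62 on the log2 scale (adjusted p = 6.30e-07, 9.21e-07 and 3.04e-06, edgeR). PLK1, a mitotic kinase that acts on FOXM1, fell by 1.498 (adjusted p = 1.47e-06, edgeR). Of the 7 CDK inhibitors 4 rose, 2 fell and 1 was not called. CDKN2B (p15), an inhibitor of CDK4 and CDK6, rose from 2.11 ± 0.166 to 9.09 ± 0.391 FPKM (log2 fold change 2.21, adjusted p = 4.56e-07, edgeR), whereas CDKN2C (p18) fell by 0.77. CDKN2A (p16) rose by 0.40 and CDKN1B (p27) by 0.43 (adjusted p = 0.000326 and 0.000655, edgeR). CDKN1A (p21) was at 87.0 ± 9.34 FPKM in NC and 97.9 ± 0.492 FPKM in siGDF15 (log2 fold change 0.27, adjusted p = 0.0140, edgeR), a call lost in 4 of 17 other settings, scaling without TMM among them (adjusted p up to 0.0946).

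The 7 genes for corepressors that pocket proteins recruit were split, with 3 lower, 3 higher and 1 not called, and without TMM 1 was higher. All tested genes were split as well, with 31.4% lower and 30% higher. SUV39H1, a histone methyltransferase, fell by 1.47 on the log2 scale (adjusted p = 8.83e-06, edgeR), and SIN3B rose by 0.37 (adjusted p = 0.000474, edgeR). HDAC2, a histone deacetylase, fell by 0.27, and SMARCA2, an ATPase of chromatin remodelling complexes, fell by 0.57.

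The genes that DREAM and MMB are known to control fell without exception in the lists used. Among all tested genes 31.4% were lower, and 4.78% had a log2 fold change of -1 or less. All 25 listed genes of G1 and S phase fell, 23 of them with a log2 fold change of -1 or less, with a median of -1.28. RRM2, a subunit of ribonucleotide reductase, fell by 1.89 and FEN1, a replication nuclease, by 1.42 (adjusted p = 4.54e-07 and 4.33e-07, edgeR). POLE, a replicative polymerase, fell by 1.28, and MCM10, a replication initiation factor, fell by 1.75. All 28 listed genes of G2 and mitosis fell, 26 of them by that margin, with a median of -1.65. CDK1, the mitotic kinase, went from 34.7 ± 0.853 to 8.81 ± 0.379 FPKM (log2 fold change -1.87, adjusted p = 2.84e-07, edgeR), and KIF2C, a mitotic kinesin, fell by 1.63. HMMR, a spindle protein, fell by 1.85, and GTSE1, a microtubule-binding protein, fell by 1.71. These lists were drawn up with results of these libraries known, so their direction is not independent evidence. Set beside them, the medians of the pocket proteins (-0.39), the core (-0.85) and MYBL2 with FOXM1 (-1.41) were values of 3, 5 and 2 genes.

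**Figure D4:**
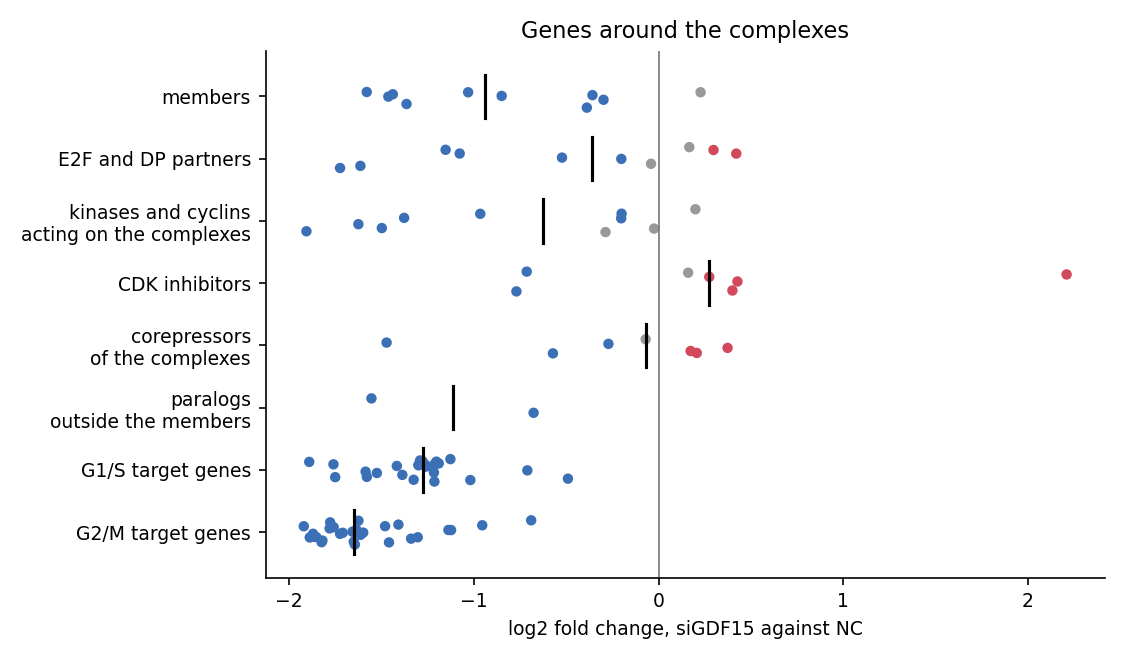
Log2 fold change, siGDF15 against NC (horizontal axis, edgeR), of the 10 genes (top row, named members) and of the genes of each list around the complexes, with 1 point per gene and a black line at the list median. Blue points fell and red points rose at an adjusted p under 0.05, and grey points were not called. All points of the G1/S and G2/M rows are blue, and red points prevail in the row of CDK inhibitors.

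Over the 6 libraries, the tested genes whose log2 counts, scaled to library size, moved most like those of MYBL2 were CDT1, ARHGEF26, POLD3, DOCK10 and CCNB2, with root mean square differences from 0.0278 to 0.0379 after each gene was centred on its own mean. For FOXM1 they were UBE2T, CENPU, CCNB1, C5orf34 and PARPBP, from 0.0312 to 0.0455. CDT1 had a log2 fold change of -1.39 beside -1.36 for MYBL2, and UBE2T had -1.45 beside -1.46 for FOXM1. With 6 libraries in 2 groups, any genes with an equal difference between the groups score as alike by this measure.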

How the data were processed

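Per the labels and the study's methods, poly(A) RNA was sequenced as stranded read pairs, and fastp, HISAT2, StringTie and edgeR are named with GRCh38, without versions. The annotation release and whether counting used strand are not given in the sources used here. The authors deposited FPKM values and expected counts per gene and library. The expected counts were whole numbers that the authors derived from transcript coverage. Of the counts from 1 to 20, 8747 (15.6%) were exactly 4, and the unit of 1 read pair was set to 4 counts. No column of values per sample was left out.

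Expected counts were tested with edgeR 4.0.16 in R 4.3.3 (TMM, quasi-likelihood, two-sided, group as the only term) over the 11867 genes (34.2%) with a mean of at least 1 FPKM, a filter on normalized values. FPKM is not scaled by TMM (factors 1.03 to 1.04 in NC and 0.958 to 0.972 in siGDF15), so ratios of FPKM differ slightly from fitted changes. SEs of fold changes were derived from the fitted change and its test statistic. The 95% intervals use a normal approximation and are narrower than the quasi-likelihood test would give. SEs of ratios came from the SDs over libraries. Ratios within libraries were tested by exact permutation. The edgeR, DESeq2 and limma fits were tested on simulated data, and the ratios, shares, nearest patterns and sequence searches were not. In the simulation few genes changed, as many up as down, and limma was run on scaled counts rather than FPKM. Here 61.4% of tested genes were called, so the simulation does not check the fits under such broad change. Alternatives used DESeq2 1.42.0 and limma 3.58.1, and figures and sequence searches used Python 3.11.15. Depth of 51738814 to 68025163 counts leaves at least 67 read pairs per library behind each of the 10 genes.

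The 10 genes and all lists were chosen with earlier results of these data known. Named genes were the 10 genes, GDF15, the genes of the E2F and paralog lists, the gene with the smallest adjusted p in each direction of each other list with up to 3 more in the direction with more calls, and the 5 nearest patterns to MYBL2 and to FOXM1. Some genes that overlap the 10, a pseudogene of RBBP4 and cell markers were named in addition. Other overlapping genes were not described. On the opposite strand they include RCBTB2 and LPAR6 over RB1, AKTIP over RBL2, THAP9 over LIN54 and ENSG00000267439 over LIN37. Samples with the same replicate number deviated together with correlations of 0.0276, -0.0753 and 0.0458, so the numbers were not taken as pairs.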

Additional observations from a re-analysis of the deposited data

How the results depend on the processing

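The 9 falls kept their direction and their call under all 17 alternatives: DESeq2 size factors, no TMM, the DESeq2 test, no filter, a filter at 0.1 FPKM, edgeR's own count filter, limma with a pseudocount of 1 or 0.1, counts divided by 4, mitochondrially encoded genes left out, a replicate block, and each library left out. RBL2 came nearest to the threshold, with an adjusted p of at most 0.0413 (edgeR, without siGDF15 replicate 3). LIN37 ranged from 0.18 to 0.33 on the log2 scale with 1 library left out, and the count of genes that rose then ranged from 0 to 1. E2F3 ranged from -0.065 to 0.0067 and DYRK1A from -0.076 to 0.039 with 1 library left out, and neither was called. With the replicate block RBL1 was at -1.58 and LIN37 at 0.23, and 6906 genes were called in all, with no call on the 10 genes changed. Without TMM the median of all tested genes was -0.10 and that of the 10 genes -1.04, and 63.4% of called genes were lower against 51.1% with TMM. Without a filter 21.2% of 34738 genes were called. The count of genes that fell by at least 1 on the log2 scale was 4 rather than 5 with limma and a pseudocount of 1 (LIN52 at -0.76), without siGDF15 replicate 2 (-0.97) and without NC replicate 3 (between this and -1). Depth was lowest for LIN52, with 67 read pairs in 1 library.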
